A study of Caenorhabditis elegans with 32 samples.

Results

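The 63 genes described here encode enzymes that activate fatty acids and break them down by beta-oxidation in *Caenorhabditis elegans*. They were taken by symbol among the protein-coding genes, as every gene named *acs*, *acdh*, *acox*, *ech* or *cpt* followed by a number, together with *daf-22*, *dhs-28* and *maoc-1*. They are 63 of 46589 genes in the table, 20528 of which are protein-coding. There are 24 *acs*, 13 *acdh*, 10 *ech*, 7 *acox* and 6 *cpt* genes among them. By known or predicted site of action, 23 were placed at mitochondrial steps and 14 at peroxisomal steps, and 26 (22 *acs* and 4 *ech* genes) were not assigned. Names came from the Ensembl annotation, and from RefSeq where Ensembl gave none. RefSeq lists *acs-9* under another symbol, and both annotations call *acs-23* a pseudogene, which the deposited table calls protein-coding. These genes were taken by name and not by their values, though with earlier results of these data known.

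Fatty acids enter either pathway as acyl-CoA esters, which acyl-CoA synthetases (*acs* genes) make. Long chains then cross into mitochondria as carnitine esters made by carnitine palmitoyltransferases (*cpt* genes), where acyl-CoA dehydrogenases (*acdh*), enoyl-CoA hydratases and hydroxyacyl-CoA dehydrogenases (*ech*), and thiolases shorten them cycle by cycle. Peroxisomes use acyl-CoA oxidases (*acox*), the hydratase MAOC-1, the dehydrogenase DHS-28 and the thiolase DAF-22 for the same sequence of reactions, and in *C. elegans* this route shortens the side chains of ascaroside pheromones. Some of the mitochondrial enzymes also serve the propionate shunt, a vitamin B12-independent route that oxidizes propionyl-CoA through ACDH-1, ECH-6, HACH-1, HPHD-1 and ALH-8.

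Whole-animal mRNA was sequenced from synchronized animals of 4 genotypes on normal growth medium (NGM) or NGM with 2% glucose, with 4 biological replicates in each of the 8 groups. The genotypes were *hlh-30* carrying the *pgph-2 o/e* transgene (called the double mutant here), *pgph-2 o/e* alone, the deletion mutant *hlh-30(tm1978)* alone, and the N2 Bristol strain as WT. PGPH-2 is a phosphatase that makes glycerol from glycerol-3-phosphate, and HLH-30 is the *C. elegans* TFEB transcription factor of autophagy and lipid breakdown genes. *pgph-2 o/e* carries an integrated array of *pgph-2* under its own promoter with the pharyngeal marker *myo-2p::mCherry*. No library came from animals with the marker alone, so effects of the marker or of the insertion and those of *pgph-2* cannot be told apart. The labels give the stage as L4 or young adult. Each library is a pool of animals, so fewer cells of a type and less RNA per cell cannot be told apart. Library totals ranged from 16750042 to 29794842 counts with a median of 19774959.5. Levels are given as FPKM, depth- and length-scaled counts after TMM normalisation over all 32 libraries, and differences as log2 fold changes with their standard errors (SE). P values come from edgeR's quasi-likelihood test, adjusted by Benjamini-Hochberg over all genes tested in a comparison. A gene was called upregulated or downregulated where its adjusted P did not exceed 0.05 and its log2 fold change reached 1 in size. A gene past that P with a smaller fold change is described by its values.

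*pgph-2* had 71.5, 53.2, 50.1 and 54.3 FPKM in *pgph-2 o/e* animals and 36.6, 33.1, 29.9 and 25.2 FPKM in WT on NGM, and 87.1, 92.2, 109.9 and 118 FPKM in *pgph-2 o/e* against 55.4, 60.8, 52.4 and 55.3 FPKM in WT on glucose. On glucose the double mutant had 74.3, 60.8, 75.3 and 65.4 FPKM of *pgph-2*, below all *pgph-2 o/e* libraries and, to the digits given, at or above all WT libraries. On NGM the double mutant had 113, 111, 105 and 88 FPKM of *pgph-2*, above all *pgph-2 o/e* libraries (0.87 ± 0.13, adjusted P = 2.4e-04), so the 2 groups differ in the level of *pgph-2* as well as in *hlh-30*. Reads of *hlh-30* were present in *hlh-30* libraries at 22.1 to 26.5 FPKM, against 38.2 to 46.4 FPKM in WT on NGM, and whether these reads lie in the deleted part cannot be read from gene counts.

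The groups differed in germline RNA. The mean log2 CPM (depth-scaled counts) of 40 sperm genes, most of them major sperm proteins, was 3.43 to 4.37 in the double mutant, 5.7 to 6.29 in *pgph-2 o/e*, 2.51 to 4.32 in *hlh-30* and 4.74 to 5.51 in WT on NGM. On glucose it was 3.95 to 4.56 in the double mutant, 2.17 to 3.71 in *pgph-2 o/e*, 0.90 to 3.97 in *hlh-30* and 5.13 to 6.13 in WT. Their summed level was 179 to 1629.7 FPKM in *hlh-30* on glucose, the lowest group, and 5758 to 9419.9 FPKM in *pgph-2 o/e* on NGM, the highest, and at most 1 of the 40 was without a count in all libraries of a group. The mean of 14 oocyte genes was 3.21 to 3.71 log2 CPM in the double mutant, 5.51 to 6.17 in *pgph-2 o/e*, 3.17 to 3.99 in *hlh-30* and 4.08 to 4.80 in WT on NGM. On glucose the oocyte mean was 3.67 to 4.80 in the double mutant, 3.46 to 3.85 in *pgph-2 o/e*, 3.00 to 3.97 in *hlh-30* and 4.67 to 5.78 in WT. Summed over the 11 intestinal markers, the tissue where much of fat breakdown takes place, levels on glucose were 4890.2 to 5582 FPKM in the double mutant, 5891 to 6632 in *pgph-2 o/e*, 5072 to 5472 in *hlh-30* and 4507 to 5513 in WT. On NGM they were 5992 to 6308 FPKM in the double mutant, 5759 to 9764 in *pgph-2 o/e*, 6246 to 7396 in *hlh-30* and 5117 to 6995 in WT, and 1 of the 11 was called in 1 of the 12 comparisons of 2 groups (*hlh-30* over WT on glucose). None of 8 muscle genes was called by edgeR in any, and at most 5 of 8 hypodermal and 3 of 8 molting genes were, the most in the double mutant over *pgph-2 o/e* on NGM. On NGM the hypodermal mean was 7.81 to 8.24 log2 CPM in *pgph-2 o/e* and 7.34 to 7.99 in WT. It was 6.031 to 6.605 in the double mutant and 5.73 to 6.77 in *hlh-30*. On glucose it was 7.88 to 8.12 in WT and 6.78 to 7.34 in the double mutant. It was 6.71 to 6.91 in *pgph-2 o/e* and 6.31 to 7.26 in *hlh-30* there. *pgph-2 o/e* on NGM and WT on both media had the highest sperm, hypodermal and molting means. Whether the groups differed in stage was not tested. Each comparison was also fitted with the sperm mean as a covariate. None of the member calls described below was kept by that fit in *pgph-2 o/e* or *hlh-30* relative to WT on either medium, in the double mutant over *pgph-2 o/e* on either medium, on glucose over NGM in *pgph-2 o/e* or in the interaction between transgene and glucose. All calls were kept on glucose over NGM in the double mutant, *hlh-30* and WT and in the double mutant over *hlh-30* on NGM, and 1 of 2 was kept in the double mutant over *hlh-30* on glucose and in the interaction between transgene and *hlh-30*. In each comparison of 2 groups where none was kept, the sperm means of the groups do not overlap. There the fit cannot part the groups from the sperm mean, and what a lost call reflects was not tested.

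Levels of the 63 genes spanned more than 3 orders of magnitude. *acdh-1* was the highest with a mean over the 32 libraries of 1512 FPKM, and *ech-6* followed with 892 FPKM. *dhs-28* (221 FPKM), *ech-1.2* (166 FPKM) and *ech-7* (162 FPKM) came next, and 10 genes lay over 100 FPKM. At the low end, 14 genes lay between 1 and 10 FPKM, and *acs-24*, *acs-9* and *acs-25* lay under 1 FPKM. *acs-25* had 2 to 9 counts in WT on glucose and passed the filter on low counts in none of the 12 comparisons of 2 groups, and each of the other 62 genes was tested in at least 1. In these comparisons 22 members were called at least once, 8 mitochondrial, 5 peroxisomal and 9 not assigned, and 41 were never called. The share of all genes called at least once was not computed, so these totals are not read as a result about the members. Shares per comparison are given below. The highest of the called genes was *acdh-2*, with a mean of 43.8 FPKM. 15 members overlap another gene in the annotation, among them *acs-7*, *cpt-1*, *dhs-28*, *maoc-1*, *acdh-12*, *acs-9* and *acox-1.3*, and since the counting is not stated to use strand their values may hold reads of the neighbour.

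**Figure D1:**
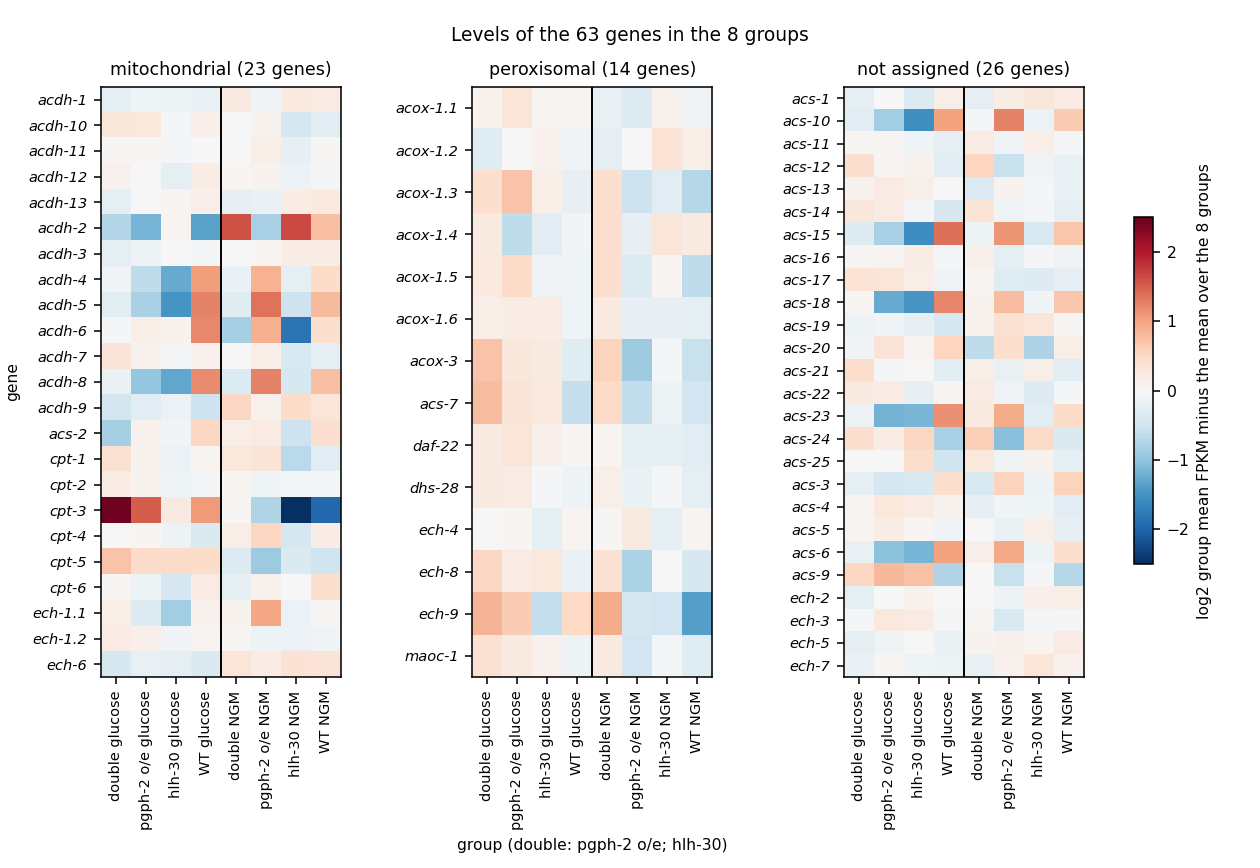
Colour gives the log2 group mean FPKM of each of the 63 genes (rows) minus its mean over the 8 groups (columns), for the 23 mitochondrial, 14 peroxisomal and 26 not assigned genes; "double" is the double mutant, the vertical line parts glucose from NGM, and the scale is symmetric about 0. *cpt-3* has the widest range, several *acdh* and *acs* genes share one pattern over the groups, and most peroxisomal genes are pale.

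Glucose was compared with NGM in each genotype. In the double mutant 2 of 62 members were upregulated and 1 downregulated, where 1.2% and 0.635% of all genes tested were. In *pgph-2 o/e* 7 were upregulated and 9 downregulated (background 6.65% and 13.1%), in *hlh-30* 2 and 1 (3.54% and 0.936%), and in WT 2 and 1 (0.596% and 0.583%). Of the 62 members tested, 2 are 3.23%, 7 are 11.3% and 9 are 14.5%. The gene upregulated by glucose in all 4 genotypes was *cpt-3*, and *acdh-2* was downregulated in 3 of them. Leaving out *hlh-30* glucose replicate 3 gave 9 calls in *hlh-30*, and leaving out double mutant glucose replicate 2 gave 5 in the double mutant.

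Between genotypes, *pgph-2 o/e* relative to WT gave 0 upregulated and 1 downregulated member on NGM (edgeR, background 1.7% and 1.18%). At an unadjusted P under 0.05 there were 12 higher and 7 lower members, and DESeq2 also called 0 and 1. The share of all genes at that unadjusted P is not given here or below, so such counts are not read as a result about the members. Without WT replicate 1 or *pgph-2 o/e* replicate 1 there were 2 calls. On glucose *pgph-2 o/e* relative to WT gave 1 upregulated and 9 downregulated members (background 5.44% and 13.7%). *hlh-30* over WT gave 0 upregulated (18 higher at an unadjusted P under 0.05, 0 with DESeq2) and 4 downregulated members on NGM (edgeR, 1.2% and 5.75%), and 2 and 10 on glucose (5.89% and 14.7%). The 4 on NGM became 1 without WT replicate 1 or *hlh-30* replicate 1, and 2 without WT replicate 2 or *hlh-30* replicate 2.

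The double mutant over *pgph-2 o/e* gave 7 upregulated and 7 downregulated members on NGM (background 7.58% and 10.7%) and 1 upregulated and 0 downregulated on glucose (edgeR, 2.5% and 0.998%). On glucose 11 were lower at an unadjusted P under 0.05 and 0 with DESeq2. That count moved to 2 without replicate 1 or without replicate 2 of *pgph-2 o/e*, to 5 without *pgph-2 o/e* replicate 3 and to 3 without double mutant replicate 2. The double mutant over *hlh-30* gave 3 upregulated and 0 downregulated members on NGM (edgeR, 1.95% and 0.353%; 9 lower at an unadjusted P under 0.05, 0 with DESeq2). On glucose it gave 2 and 0 (edgeR, 0.787% and 0.19%; 8 lower at an unadjusted P under 0.05, 0 with DESeq2). The 2 on glucose became 10 without *hlh-30* replicate 3 and 1 without *hlh-30* replicate 1 or double mutant replicate 1 or 4. Comparisons that share a group, such as these and those of glucose with NGM, are not independent of each other.

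The 2 mitochondrial genes of highest level, both of the propionate shunt, were lower on glucose in the double mutant, *hlh-30* and WT. *acdh-1*, the acyl-CoA dehydrogenase that opens the shunt, had 1303, 1514, 1144 and 1151 FPKM in the double mutant on glucose and 1775, 1809, 1747 and 1719.5 FPKM on NGM. The *pgph-2 o/e* libraries had 1543, 1401, 1297 and 1290.5 FPKM on glucose and 1279, 1542, 1496 and 1422 FPKM on NGM. The glucose and NGM libraries did not overlap in the double mutant, and overlapped in *pgph-2 o/e*. The *pgph-2 o/e* libraries on NGM were lower than those of the other genotypes, but relative to WT the difference did not pass the test (-0.28 ± 0.14, adjusted P = 0.24). In *hlh-30* the values were 1386, 1329, 1352 and 1454 FPKM on glucose and 1844, 1786, 1705 and 1792 FPKM on NGM, and in WT 1338, 1353, 1322 and 1333 FPKM on glucose and 1756, 1766, 1704 and 1722 FPKM on NGM, without overlap in either. The log2 fold change of glucose over NGM was -0.46 ± 0.08, adjusted P = 0.0042 in the double mutant, -0.05 ± 0.13, adjusted P = 0.81 in *pgph-2 o/e*, -0.34 ± 0.05, adjusted P = 0.0034 in *hlh-30* and -0.37 ± 0.05, adjusted P = 0.0029 in WT. None reached the fold change for a call. The interaction between transgene and glucose was 0.31 ± 0.13, adjusted P = 0.073, so for *acdh-1* the difference in response between *pgph-2 o/e* and WT did not pass the test.

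*ech-6*, the enoyl-CoA hydratase of the next step, had 647, 790.0, 578 and 613 FPKM in the double mutant on glucose and 1099.7, 1116, 1008 and 1061 FPKM on NGM. It had, in *pgph-2 o/e*, 734, 792, 711 and 849 FPKM on glucose and 1267, 848, 881 and 993 FPKM on NGM. In *pgph-2 o/e* the highest glucose library lay just above the lowest NGM library, and in the double mutant there was no overlap. In *hlh-30* it had 759, 744, 752 and 727 FPKM on glucose and 1089.9, 1104, 1089 and 1204 FPKM on NGM, and in WT 685, 672, 669.9 and 675 FPKM on glucose and 1003, 1094, 1112 and 1162 FPKM on NGM. Its log2 fold change was -0.71 ± 0.09, adjusted P = 6.3e-04 in the double mutant, -0.37 ± 0.15, adjusted P = 0.073 in *pgph-2 o/e*, -0.57 ± 0.05, adjusted P = 3.2e-04 in *hlh-30* and -0.68 ± 0.06, adjusted P = 4.0e-04 in WT.

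The 3 remaining shunt genes are no members, and were looked at after the values of *acdh-1* and *ech-6* were seen. *hach-1*, a 3-hydroxypropionyl-CoA hydrolase, had 200.1 ± 51.4 FPKM in the double mutant, 227 ± 14.5 in *pgph-2 o/e*, 229 ± 24.7 in *hlh-30* and 194 ± 7.24 in WT on glucose (SD, n = 4 each). On NGM it had 409.7 ± 38 FPKM in the double mutant, 296 ± 45 in *pgph-2 o/e*, 391 ± 57.9 in *hlh-30* and 381 ± 28.9 in WT (SD, n = 4 each). It was downregulated in the double mutant (-1.04 ± 0.14, adjusted P = 0.0011) and lower by less than the fold for a call in *pgph-2 o/e* (-0.38 ± 0.12, adjusted P = 0.031), *hlh-30* (-0.75 ± 0.12, adjusted P = 0.0056) and WT (-0.96 ± 0.07, adjusted P = 1.0e-04). *hphd-1*, the 3-hydroxypropionate dehydrogenase, changed by -0.70 ± 0.10, adjusted P = 0.0012 in the double mutant, -0.60 ± 0.05, adjusted P = 4.0e-04 in *hlh-30* and -0.64 ± 0.06, adjusted P = 7.0e-04 in WT, and by -0.40 ± 0.15, adjusted P = 0.054 in *pgph-2 o/e*. *alh-8*, a semialdehyde dehydrogenase, changed by -0.48 ± 0.07, adjusted P = 0.0014 in the double mutant, -0.61 ± 0.19, adjusted P = 0.023 in *pgph-2 o/e*, -0.66 ± 0.06, adjusted P = 4.0e-04 in *hlh-30* and -0.67 ± 0.07, adjusted P = 0.0013 in WT. The interaction between transgene and glucose was 0.58 ± 0.14, adjusted P = 0.0044 for *hach-1*, and 0.47, adjusted P = 0.93 with the sperm covariate. It was 0.31 ± 0.16, adjusted P = 0.15 for *ech-6*, 0.23 ± 0.16, adjusted P = 0.30 for *hphd-1* and 0.04 ± 0.20, adjusted P = 0.90 for *alh-8*. Of the 4 genes of the B12-dependent route (*pcca-1*, *pccb-1*, *mce-1* and *mmcm-1*), log2 fold changes of glucose over NGM ranged between -0.37 for *mmcm-1* in *pgph-2 o/e* and 0.17 for *mce-1*, also in *pgph-2 o/e*. With the sperm mean as a covariate the *ech-6* values were -0.69 in the double mutant, -0.60 in *hlh-30* and -0.64 in WT, all past the adjusted P of 0.05, and -0.03, adjusted P = 0.99 in *pgph-2 o/e*, whose glucose and NGM libraries do not overlap in the sperm mean.

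**Figure D2:**
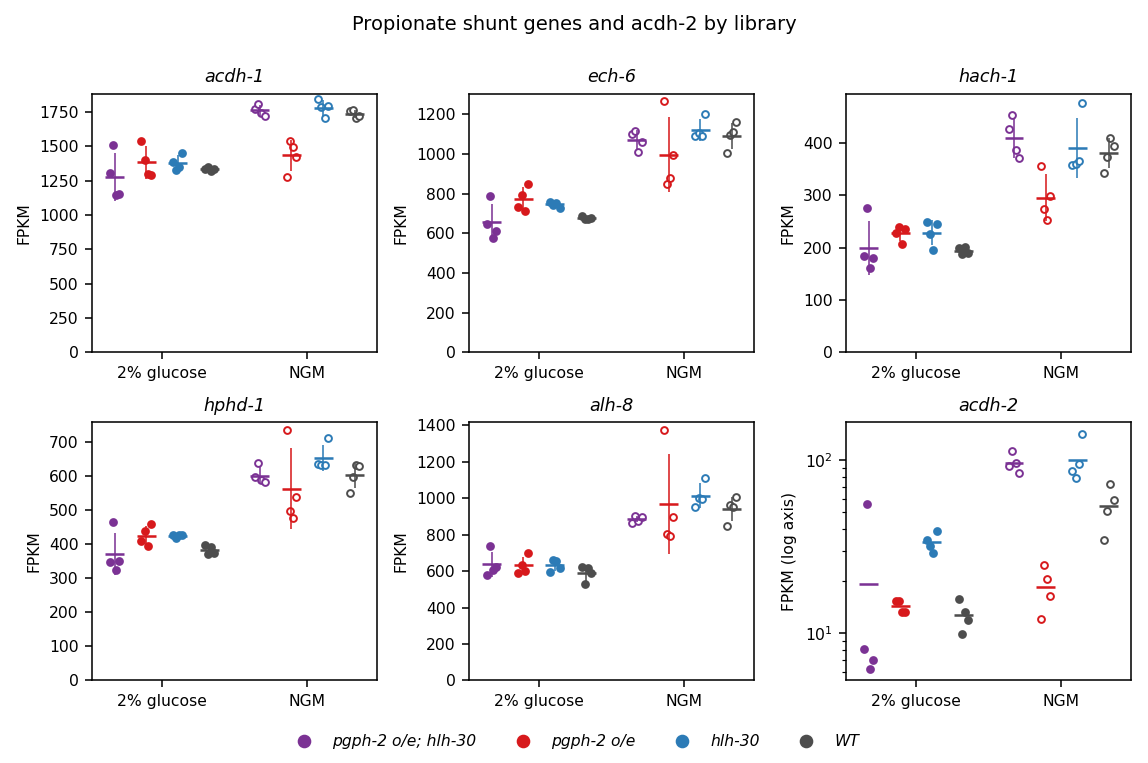
FPKM of the 5 propionate shunt genes and *acdh-2* (log axis for *acdh-2*) in each of the 32 libraries; filled points are 2% glucose and open points NGM, colours mark the genotypes, horizontal bars are means of 4 libraries and, in the linear panels, vertical bars their SD. The shunt genes are lower on glucose in each genotype by their means, and 1 double mutant library stands far above its group for *acdh-2*.

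*acdh-2*, a close relative of *acdh-1* among the short-chain acyl-CoA dehydrogenases (chromosome II, 5545620 to 5547490, WBcel235), was called in 6 of the 12 comparisons of 2 groups. On NGM it had 92.8, 113.8, 96.1 and 84.6 FPKM in the double mutant and 12.2, 24.8, 20.5 and 16.4 FPKM in *pgph-2 o/e*. It had 87.2, 79.3, 94.8 and 142 FPKM in *hlh-30* and 34.5, 50.7, 73 and 59.2 FPKM in WT. The libraries of *pgph-2 o/e* all lay below, and those of the double mutant and *hlh-30* all above, the WT libraries. It was downregulated in *pgph-2 o/e* relative to WT (-1.56 ± 0.24, adjusted P = 0.0029) and upregulated in the double mutant over *pgph-2 o/e* (2.40 ± 0.19, adjusted P = 2.9e-06). In *hlh-30* over WT it was higher by 0.90 ± 0.24, adjusted P = 0.034. The interaction between transgene and *hlh-30* on NGM was 1.52 ± 0.32, adjusted P = 0.015. With the sperm mean as a covariate the interaction was 1.31, adjusted P = 0.0044, while the calls in *pgph-2 o/e* relative to WT (-0.56, adjusted P = 0.94) and in the double mutant over *pgph-2 o/e* (1.22, adjusted P = 0.33) were lost. In both of these the groups' sperm means do not overlap.

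On glucose *acdh-2* had 8.15, 55.7, 6.23 and 7.02 FPKM in the double mutant, 1 library standing far above the other 3. It had 15.4, 15.5, 13.2 and 13.3 FPKM in *pgph-2 o/e*, 34.7, 32.1, 29.2 and 38.8 FPKM in *hlh-30* and 15.7, 9.95, 13.3 and 11.9 FPKM in WT. Glucose lowered it in the double mutant (-2.34 ± 0.58, adjusted P = 0.021), in *hlh-30* (-1.56 ± 0.18, adjusted P = 0.0017) and in WT (-2.09 ± 0.22, adjusted P = 9.7e-04), and its value in *pgph-2 o/e*, low on both media, was -0.36 ± 0.19, adjusted P = 0.15. In the double mutant the call was lost without glucose replicate 1 (-2.09, adjusted P = 0.059) or replicate 4 (-2.07, adjusted P = 0.070). The mean of the double mutant on glucose without replicate 2 was 7.14 ± 0.965 FPKM (SD, n = 3). *hlh-30* over WT was upregulated on glucose (1.41 ± 0.14, adjusted P = 4.9e-04), and with the sperm covariate this was 0.87, adjusted P = 0.12. The interaction between transgene and glucose was 1.72 ± 0.30, adjusted P = 3.5e-04, and 0.12, adjusted P = 0.99 with the covariate.

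*acdh-9*, an acyl-CoA dehydrogenase of higher level, had 65.2 ± 19.7 FPKM in the double mutant, 74.4 ± 2.76 in *pgph-2 o/e*, 80.4 ± 4.11 in *hlh-30* and 62.9 ± 10.2 in WT on glucose (SD, n = 4 each). On NGM it had 129 ± 7.6 FPKM in the double mutant, 95.9 ± 7.49 in *pgph-2 o/e*, 123 ± 8.82 in *hlh-30* and 110.3 ± 9.85 in WT (SD, n = 4 each). Its log2 fold change of glucose over NGM was -0.98 ± 0.16, adjusted P = 0.0023 in the double mutant, -0.36 ± 0.09, adjusted P = 0.007 in *pgph-2 o/e*, -0.59 ± 0.07, adjusted P = 0.0015 in *hlh-30* and -0.80 ± 0.11, adjusted P = 0.0045 in WT. All 4 values lay under the fold for a call. In the double mutant it passed that fold without NGM replicate 1 (-1.01) or glucose replicate 2 (-1.22). For *acdh-9* the interaction between transgene and glucose was 0.43 ± 0.14, adjusted P = 0.022, under the fold for a call.

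At the carnitine step, *cpt-3* (chromosome III, 2082819 to 2088272, WBcel235), a carnitine palmitoyltransferase of the same family as *cpt-1*, rose on glucose in all 4 genotypes. It had 3.42, 2.81, 2.99 and 4.72 FPKM in the double mutant on glucose and 0.645, 0.484, 0.905 and 0.619 FPKM on NGM. The *pgph-2 o/e* libraries had 2.43, 1.59, 1.54 and 1.83 FPKM on glucose and 0.337, 0.418, 0.141 and 0.64 FPKM on NGM. Each of the glucose libraries lay above all NGM libraries of its genotype. In *hlh-30* it had 0.831, 0.659, 0.923 and 0.641 FPKM on glucose and 0.0679, 0.0782, 0.191 and 0.11 FPKM on NGM, and in WT 1.08, 0.914, 2.11 and 1.34 FPKM on glucose and 0.0549, 0.342, 0.162 and 0.103 FPKM on NGM. These levels are low, from 3 to 8 counts per library in *hlh-30* on NGM up to 111 to 193 counts in the double mutant on glucose. The log2 fold change of glucose over NGM was 2.39 ± 0.23, adjusted P = 1.1e-04 in the double mutant, 2.28 ± 0.39, adjusted P = 8.9e-04 in *pgph-2 o/e*, 2.77 ± 0.38, adjusted P = 0.0034 in *hlh-30* and 3.02 ± 0.49, adjusted P = 0.0093 in WT. With the sperm covariate it was 2.38 in the double mutant, 2.92 in *hlh-30* and 3.44 in WT, all still called, and 1.89, adjusted P = 0.58 in *pgph-2 o/e*. The double mutant also had more *cpt-3* than *hlh-30*, by 2.53 ± 0.40, adjusted P = 0.0045 on NGM and 2.15 ± 0.23, adjusted P = 0.0023 on glucose, both also called with the covariate. These 2 comparisons set the transgene against its absence in the *hlh-30* background. With *hlh-30* intact, *pgph-2 o/e* relative to WT gave 1.17 ± 0.60, adjusted P = 0.25 on NGM and 0.44 ± 0.28, adjusted P = 0.25 on glucose, neither called. The interaction between transgene and *hlh-30* on NGM was 1.39 ± 0.76, adjusted P = 0.32, so a dependence on *hlh-30* did not pass the test.

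*cpt-5*, another member of the family, had 17.6, 12.3, 16.2 and 19 FPKM in the double mutant on glucose and 7.21, 8.12, 8.9 and 6.94 FPKM on NGM. It had, in *pgph-2 o/e*, 12.9, 12.9, 16.3 and 12.1 FPKM on glucose and 4.18, 6.32, 4.89 and 5.53 FPKM on NGM. The glucose libraries of both genotypes lay above their NGM libraries. In *hlh-30* it had 13.6 ± 1.86 FPKM on glucose and 7.71 ± 0.848 FPKM on NGM, and in WT 13.6 ± 4.15 FPKM on glucose and 6.96 ± 0.706 FPKM on NGM (SD, n = 4 each), again without overlap. It was upregulated in the double mutant (1.06 ± 0.13, adjusted P = 5.7e-04) and in *pgph-2 o/e* (1.37 ± 0.15, adjusted P = 5.6e-05), and higher by 0.84 ± 0.12, adjusted P = 0.0034 in *hlh-30* and 0.97 ± 0.19, adjusted P = 0.02 in WT, under the fold for a call. With the sperm covariate it was called in the double mutant (1.07), *hlh-30* (1.03) and WT (1.31) and not in *pgph-2 o/e* (1.52, adjusted P = 0.14). Without double mutant glucose replicate 4 the value was 0.98. In WT it passed the fold without NGM replicate 2 (1.04) or glucose replicate 2 (1.09) or 4 (1.05). The interaction between transgene and glucose was 0.40 ± 0.24, adjusted P = 0.23.

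*cpt-1*, the canonical outer membrane transferase, had 101, 85.3, 86.2 and 70.0 FPKM in the double mutant and 112, 88.8, 73.6 and 86.3 FPKM in *pgph-2 o/e*, against 39.5, 39, 46.9 and 55 FPKM in *hlh-30* and 59.3, 57.7, 66.3 and 51.6 FPKM in WT on NGM. Both genotypes with the transgene lay above their counterparts without it, with no overlap. The difference was 0.92 ± 0.13, adjusted P = 0.003 for the double mutant over *hlh-30* and 0.61 ± 0.14, adjusted P = 0.022 for *pgph-2 o/e* relative to WT, under the fold for a call. Without *hlh-30* replicate 4 (1.03) or double mutant replicate 4 (1.01), the first of these passed it. With the sperm covariate it was 0.99, adjusted P = 1.5e-06 for the double mutant over *hlh-30* and 0.22, adjusted P = 0.99 for *pgph-2 o/e* relative to WT. On glucose the values were 0.49 ± 0.10, adjusted P = 0.024 for the double mutant over *hlh-30* and 0.03 ± 0.10, adjusted P = 0.86 for *pgph-2 o/e* relative to WT. *cpt-2*, the inner membrane transferase, stayed between 77 and 95 FPKM in its group means.

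*acs-2*, a mitochondrial acyl-CoA synthetase induced by fasting through NHR-49, had 29.5, 40.8, 20.4 and 32.5 FPKM in the double mutant on glucose. It had 57, 51.2, 51.4 and 76.6 FPKM in *pgph-2 o/e*, 58.8, 36.6, 55 and 58 FPKM in *hlh-30* and 79.1, 71.2, 85.8 and 75.6 FPKM in WT on glucose. On NGM the double mutant had 66.5, 72.8, 66.2 and 38.7 FPKM, *pgph-2 o/e* 77, 77.2, 48.2 and 50.9, *hlh-30* 31.9, 26.2, 33.9 and 61.8 and WT 50.6, 66.5, 104 and 73.5 FPKM. The *hlh-30* libraries were the lowest on NGM by their mean. *hlh-30* over WT on NGM was -0.92 ± 0.28, adjusted P = 0.054, and -1.83 (adjusted P = 0.0051) with the sperm covariate, a call of that fit alone. On glucose the double mutant was below *pgph-2 o/e* in every library and below WT in every library. The log2 fold change of the double mutant over *pgph-2 o/e* on glucose was -0.97 ± 0.19, adjusted P = 0.008, and that of glucose over NGM in the double mutant -0.99 ± 0.21, adjusted P = 0.0098, both just under the fold for a call. Leaving out single libraries carried them past it, the first to -1.03 without *pgph-2 o/e* replicate 2, -1.04 without *pgph-2 o/e* replicate 3 and -1.14 without double mutant replicate 2. The second went to -1.16 without NGM replicate 4, -1.16 without glucose replicate 2 and -1.02 without glucose replicate 4. In the other genotypes glucose changed *acs-2* by -0.10 ± 0.19, adjusted P = 0.72 (*pgph-2 o/e*), 0.46 ± 0.26, adjusted P = 0.26 (*hlh-30*) and 0.09 ± 0.18, adjusted P = 0.79 (WT).

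**Figure D3:**
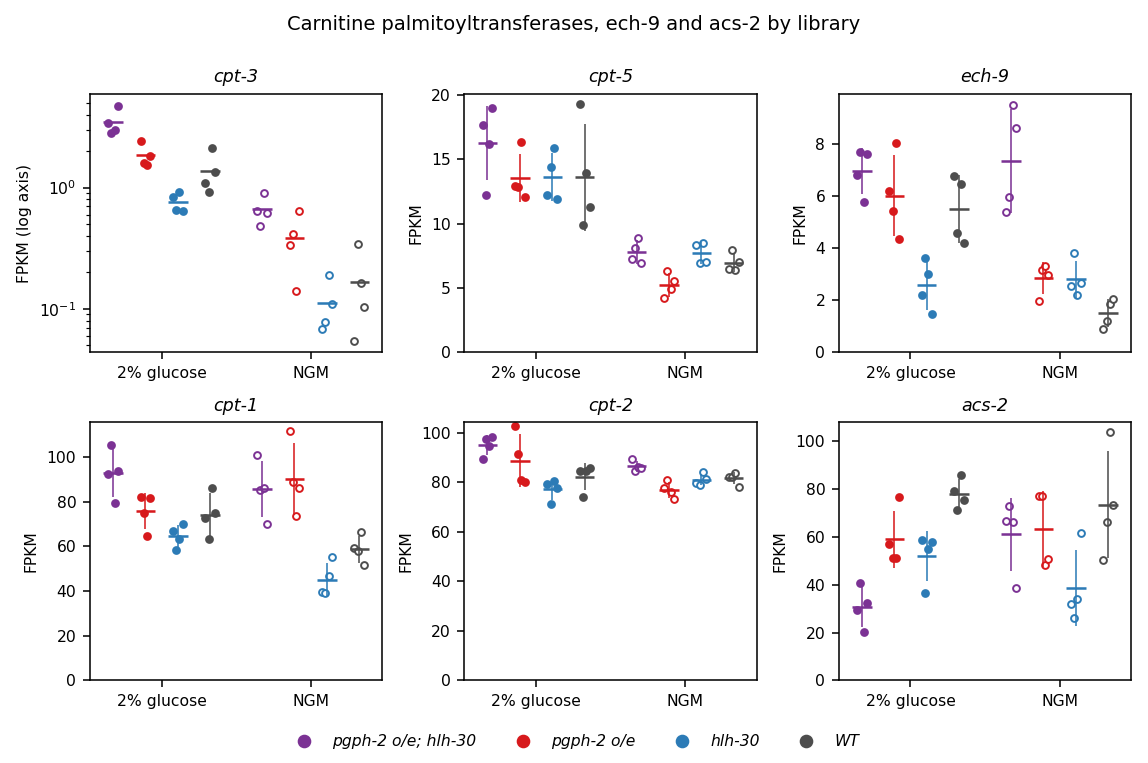
FPKM of *cpt-3* (log axis), *cpt-5*, *ech-9*, *cpt-1*, *cpt-2* and *acs-2* in each library; filled points are 2% glucose and open points NGM, colours mark the genotypes, horizontal bars are means of 4 libraries and, in the linear panels, vertical bars their SD. The *cpt-3* and *cpt-5* libraries on glucose lie above those on NGM within each genotype, *ech-9* has its lowest group means in WT on NGM and in *hlh-30*, and *cpt-2* is nearly level.

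Genes of the long-chain mitochondrial cycle were close to level. *acdh-12*, the very-long-chain acyl-CoA dehydrogenase, had group means between 58.2 FPKM in *hlh-30* on glucose and 78.4 FPKM in WT on glucose, and that pair differed by -0.43 ± 0.07, adjusted P = 0.0029. *ech-1.2*, an alpha subunit of the mitochondrial trifunctional protein, had 190.1 ± 3.31 FPKM in the double mutant on glucose at the high end and 150.3 ± 7.16 FPKM in *hlh-30* on NGM at the low end (SD, n = 4 each). Its paralogue *ech-1.1* was far lower, with 1.4, 1.36, 1.78 and 1.5 FPKM in *pgph-2 o/e* on glucose and 3.9, 3.31, 4.26 and 3.42 FPKM on NGM, and 2.5, 1.96, 1.6 and 1.64 FPKM in WT on NGM. All 4 *pgph-2 o/e* libraries on NGM were above those of the other 3 genotypes. Glucose downregulated it in *pgph-2 o/e* (-1.30 ± 0.18, adjusted P = 2.3e-04) and the interaction between transgene and glucose was -1.41 ± 0.26, adjusted P = 5.5e-04. Both calls were lost with the sperm covariate, the first at -0.72, adjusted P = 0.67 and the second at -0.18, adjusted P = 0.98. In *pgph-2 o/e* relative to WT on NGM it was 0.95 ± 0.19, adjusted P = 0.014, and 1.09 without WT replicate 1. Of the 12 partner genes listed for the mitochondrial cycle (thiolases, hydroxyacyl-CoA dehydrogenases, electron transfer genes and the carnitine carrier *dif-1*), the single gene called in any comparison of 2 groups was W03F9.4, which has no name in the annotations used. Its level was low, with group means from 0.191 FPKM in WT on NGM to 3.87 FPKM in the double mutant on glucose. It was upregulated on glucose over NGM in every genotype. It changed by 1.86 ± 0.23, adjusted P = 5.0e-04 in the double mutant, 2.07 ± 0.26, adjusted P = 1.0e-04 in *pgph-2 o/e*, 2.56 ± 0.32, adjusted P = 0.0021 in *hlh-30* and 2.49 ± 0.41, adjusted P = 0.0095 in WT. It was also upregulated over WT on glucose in *pgph-2 o/e* (1.14 ± 0.18, adjusted P = 8.4e-04) and in *hlh-30* (1.72 ± 0.27, adjusted P = 0.0022), and on NGM in *hlh-30* (1.68 ± 0.46, adjusted P = 0.038). With the sperm covariate these were 1.07, adjusted P = 0.42, 0.48, adjusted P = 0.63 and 1.01, adjusted P = 0.60. Glucose over NGM was still called with it in the double mutant (1.87), *hlh-30* (1.96) and WT (2.77), and not in *pgph-2 o/e* (2.90, adjusted P = 0.087). The median of the 12 on glucose over NGM was -0.12 in the double mutant, 0.01 in *pgph-2 o/e*, -0.11 in *hlh-30* and -0.18 in WT.

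Peroxisomal genes had their highest medians in 2 comparisons. In the double mutant over *pgph-2 o/e* on NGM, 12 of the 14 had a positive log2 fold change, 11 of them with an adjusted P of 0.05 or less, and 4 were called (*acox-3*, *ech-9*, *ech-8* and *acs-7*), where 7.58% of all genes tested were called upregulated. Their median was 0.68, against -0.04 for the 23 mitochondrial genes and 0.01 for all genes tested. In *pgph-2 o/e* on glucose over NGM, 12 of 14 were positive, 11 of them with an adjusted P of 0.05 or less, and 3 were called (*acox-1.3*, *acox-3* and *ech-9*; background 6.65%), with a median of 0.67, against -0.18 for the mitochondrial genes. Both comparisons rest on the same 4 *pgph-2 o/e* libraries on NGM. In the remaining 10 comparisons of 2 groups the peroxisomal median lay between -0.06 (*pgph-2 o/e* relative to WT, NGM) and 0.33 (double mutant over *hlh-30*, NGM). Positive values were as frequent in other comparisons. They were found for 12 of 14 in the double mutant over *hlh-30* on NGM, 8 of them past the adjusted P, where the groups' sperm means overlap, and for 12 of 14 in *pgph-2 o/e* relative to WT on glucose, also 8 past it. In *hlh-30* over WT on NGM 13 of 14 were positive, 3 of them past the adjusted P. The shares of all genes that were positive, or past the adjusted P at any fold change, are not given here. These counts of positive genes and of genes past the adjusted P are therefore not read as a result about the members. In the 2 comparisons of highest median the sperm means of the groups do not overlap, 36 and 37 of 39 tested sperm genes were downregulated, and with the covariate none of the calls above was kept. In the second that fit called *acox-1.2* instead, an oxidase gene, as downregulated (-1.71, adjusted P = 0.042).

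*acs-7* activates fatty acid side chains in the peroxisome for shortening. It had 23.1, 22, 23.5 and 18.1 FPKM in the double mutant, 8.02, 10.2, 10.2 and 12.4 FPKM in *pgph-2 o/e*, 13.3, 12.1, 14.4 and 17.3 FPKM in *hlh-30* and 13, 10.7, 9.83 and 11.2 FPKM in WT on NGM. On glucose it had 24.9, 25.8, 26 and 29.5 FPKM in the double mutant, 21.5, 20.7, 16.8 and 18.7 FPKM in *pgph-2 o/e*, 21.9, 18.6, 12.8 and 20.2 FPKM in *hlh-30* and 10.8, 9.04, 11.5 and 10.3 FPKM in WT. The WT libraries on both media and the *pgph-2 o/e* libraries on NGM were low, and on glucose every library of the other 3 genotypes was above all of WT. It was upregulated in the double mutant over *pgph-2 o/e* on NGM (1.09 ± 0.14, adjusted P = 6.8e-05, and 0.72, adjusted P = 0.58 with the sperm covariate), and glucose changed it by 0.93 ± 0.14, adjusted P = 4.4e-04 in *pgph-2 o/e* and -0.10 ± 0.11, adjusted P = 0.61 in WT. The interaction between transgene and glucose was 1.02 ± 0.18, adjusted P = 4.6e-04, and 0.42, adjusted P = 0.94 with the covariate. It fell below the fold for a call, with values of 0.94 to 0.99, without *pgph-2 o/e* NGM replicate 1, *pgph-2 o/e* glucose replicate 1 or 2, WT NGM replicate 1 or WT glucose replicate 2. In *pgph-2 o/e* the glucose response passed the fold without NGM replicate 4 (1.03).

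*acox-3*, an acyl-CoA oxidase, had the pattern of *acs-7*. On NGM it had 41, 39, 40.5 and 32.6 FPKM in the double mutant, 10.7, 16.9, 15.2 and 13.5 FPKM in *pgph-2 o/e*, 24.5, 24.8, 24.6 and 28.4 FPKM in *hlh-30* and 16.1, 18.1, 18.3 and 17.6 FPKM in WT. On glucose it had 43.4, 43.8, 41.2 and 41.9 FPKM in the double mutant, 32.7, 32.7, 29.7 and 30.7 FPKM in *pgph-2 o/e*, 29.3, 37.2, 24.3 and 29.9 FPKM in *hlh-30* and 23.7, 19.4, 20.5 and 20.3 FPKM in WT. On NGM the double mutant, *hlh-30*, WT and *pgph-2 o/e* stood in descending order of their means, and the double mutant did not overlap the other groups. It was upregulated in the double mutant over *pgph-2 o/e* on NGM (1.45 ± 0.13, adjusted P = 8.1e-06) and, within *pgph-2 o/e*, on glucose over NGM (1.16 ± 0.13, adjusted P = 6.4e-05). Both calls were lost with the sperm covariate (0.93, adjusted P = 0.42 in the first and 0.62, adjusted P = 0.56 in the second). The double mutant over *hlh-30* on NGM, 2 groups whose sperm means overlap, differed by 0.57 ± 0.09, adjusted P = 0.0037. The interaction between transgene and *hlh-30* on NGM was 0.92 ± 0.16, adjusted P = 0.0052 and that with glucose 0.89 ± 0.15, adjusted P = 3.0e-04.

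*maoc-1*, the hydratase of the next step, had 83.4 ± 3.91 FPKM in the double mutant, 50.7 ± 4.67 in *pgph-2 o/e*, 70.0 ± 4.94 in *hlh-30* and 57.9 ± 4.01 in WT on NGM (SD, n = 4 each). On glucose it had 92.1 ± 3.19 FPKM in the double mutant, 82.6 ± 6.37 in *pgph-2 o/e*, 76.5 ± 4.49 in *hlh-30* and 65.2 ± 11.4 in WT (SD, n = 4 each). It differed by 0.73 ± 0.09, adjusted P = 6.3e-05 in the double mutant over *pgph-2 o/e* on NGM. *ech-8*, a predicted hydratase and dehydrogenase, had 18.4, 18.3, 18.9 and 17 FPKM in the double mutant and 4.76, 11, 10.3 and 6.34 FPKM in *pgph-2 o/e* on NGM, without overlap. It was upregulated by 1.17 ± 0.22, adjusted P = 0.0011, with 0.27, adjusted P = 0.9 under the sperm covariate and 0.98 without *pgph-2 o/e* replicate 1, the lowest library. Glucose over NGM in *pgph-2 o/e* gave 1.00 for *ech-8*, at the edge of the fold for a call, and it passed that fold without NGM replicate 2 (1.18) or 3 (1.14) or glucose replicate 1 (1.01) or 4 (1.09). *dhs-28*, the dehydrogenase, had 245 ± 3.44 FPKM in the double mutant, 195 ± 33.7 in *pgph-2 o/e*, 213 ± 11.5 in *hlh-30* and 187 ± 13.4 in WT on NGM (SD, n = 4 each), and 0.33 ± 0.12, adjusted P = 0.048 for the double mutant over *pgph-2 o/e*. *daf-22*, the thiolase that ends the cycle, was 0.56 ± 0.12, adjusted P = 0.004 on glucose over NGM in *pgph-2 o/e* and 0.40 ± 0.06, adjusted P = 0.0057 in *hlh-30*. *acox-1.1*, the main oxidase of ascaroside synthesis, changed by 0.64 ± 0.09, adjusted P = 3.1e-04 on glucose in *pgph-2 o/e* and by 0.16 ± 0.10, adjusted P = 0.21 in the double mutant over *pgph-2 o/e* on NGM.

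**Figure D4:**
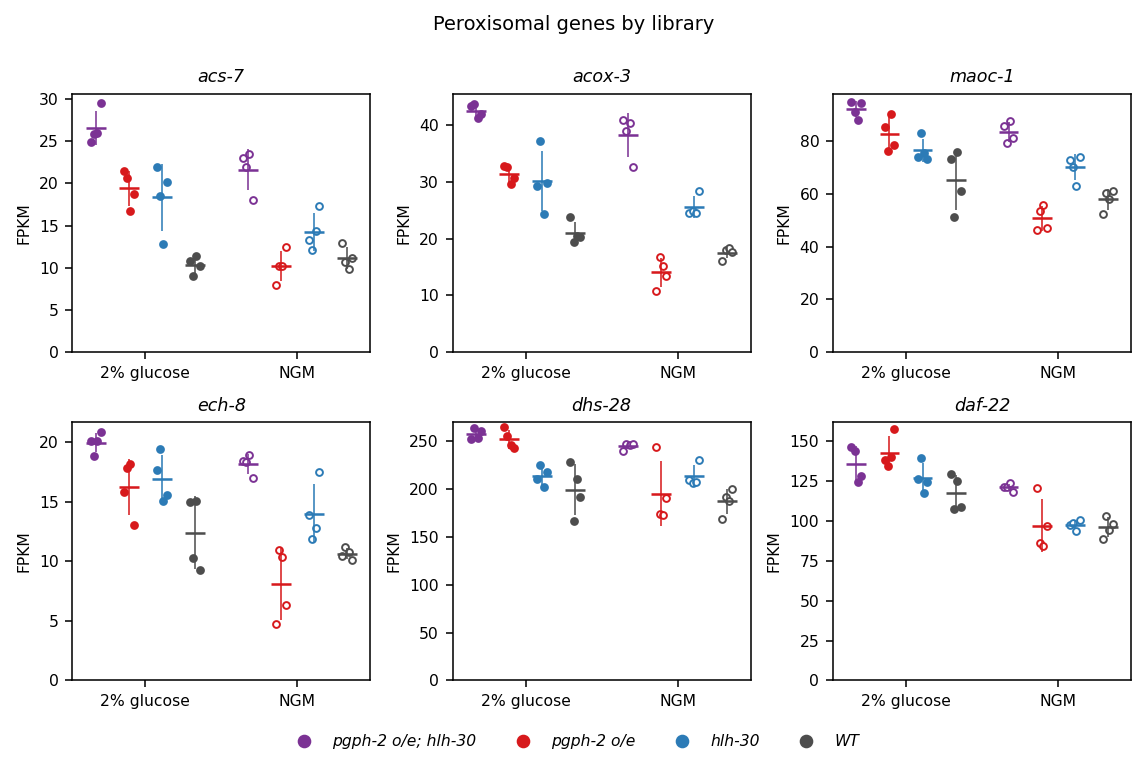
FPKM of 6 peroxisomal genes in each library; filled points are 2% glucose and open points NGM, colours mark the genotypes, horizontal bars are means of 4 libraries and vertical bars their SD. The *pgph-2 o/e* libraries on NGM have the lowest group mean for *acs-7*, *acox-3*, *maoc-1* and *ech-8*, and the double mutant is high on both media.

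*ech-9* (chromosome IV, 10233320 to 10235329, WBcel235), a paralogue of *ech-8*, differed more widely than the rest of the peroxisomal genes. On NGM it had 5.38, 5.95, 9.49 and 8.6 FPKM in the double mutant, 1.96, 3.17, 3.32 and 2.97 FPKM in *pgph-2 o/e*, 2.56, 3.83, 2.19 and 2.66 FPKM in *hlh-30* and 0.888, 1.19, 1.87 and 2.05 FPKM in WT. On glucose it had 6.79, 7.69, 5.78 and 7.61 FPKM in the double mutant, 6.2, 5.44, 8.06 and 4.36 FPKM in *pgph-2 o/e*, 2.2, 3.61, 2.99 and 1.47 FPKM in *hlh-30* and 6.78, 4.6, 6.45 and 4.19 FPKM in WT. The double mutant was above *hlh-30* in every library on both media, and WT and *pgph-2 o/e* were above their NGM libraries on glucose, where *hlh-30* and the double mutant were not. The log2 fold change of glucose over NGM was -0.07 ± 0.18, adjusted P = 0.85 in the double mutant, 1.07 ± 0.23, adjusted P = 0.004 in *pgph-2 o/e*, -0.11 ± 0.30, adjusted P = 0.83 in *hlh-30* and 1.89 ± 0.28, adjusted P = 0.006 in WT. In WT the value with the sperm covariate was 2.37, adjusted P = 1.7e-04, and in *pgph-2 o/e* the call was lost with it (1.12, adjusted P = 0.59), without NGM replicate 1 (0.95) and without glucose replicate 3 (0.90). Whether the responses of WT and *hlh-30* to glucose differ was not tested.

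In the double mutant over *hlh-30*, *ech-9* was upregulated by 1.38 ± 0.23, adjusted P = 0.0059 on NGM and 1.40 ± 0.25, adjusted P = 0.018 on glucose. On NGM it was 1.32, adjusted P = 2.1e-04 with the sperm covariate. On glucose it was 0.99, adjusted P = 0.13 with the covariate, and the adjusted P was 0.056 without *hlh-30* replicate 1 (log2 fold change 1.33), 0.051 without double mutant replicate 1 (1.41) and 0.068 without double mutant replicate 4 (1.36). The double mutant over *pgph-2 o/e* on NGM gave 1.36 ± 0.22, adjusted P = 4.8e-04, and 1.49, adjusted P = 0.5 with the covariate. On glucose it was downregulated in *hlh-30* over WT (-1.1 ± 0.29, adjusted P = 0.014), and -0.99 without WT replicate 1 or -0.91 without *hlh-30* replicate 4. With the covariate this was -0.58, adjusted P = 0.74.

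Summed over the genes of each site, the 14 peroxisomal genes had 793 ± 16.2 FPKM in the double mutant, 599 ± 45 in *pgph-2 o/e*, 680.2 ± 29.9 in *hlh-30* and 605 ± 26 in WT on NGM (SD, n = 4 each). On glucose they had 834 ± 24.9 FPKM in the double mutant, 817 ± 19.9 in *pgph-2 o/e*, 713 ± 34.8 in *hlh-30* and 666 ± 72.7 in WT (SD, n = 4 each). *acdh-1* with *ech-6* made up most of the mitochondrial sum, 62.6 to 66.6% of it in the double mutant on glucose and 70.1 to 72.3% on NGM. Without those 2 genes the remaining 21 mitochondrial genes had 1064 ± 68.2 FPKM in the double mutant, 1035 ± 63.7 in *pgph-2 o/e*, 956 ± 37.2 in *hlh-30* and 1077 ± 63.4 in WT on glucose (SD, n = 4 each). On NGM these had 1140.0 ± 52.2 FPKM in the double mutant, 1091 ± 108 in *pgph-2 o/e*, 988 ± 44.1 in *hlh-30* and 1050.2 ± 39.1 in WT (SD, n = 4 each). The ratio of the peroxisomal sum to this remainder was 0.785 ± 0.028 in the double mutant, 0.791 ± 0.0356 in *pgph-2 o/e*, 0.748 ± 0.0627 in *hlh-30* and 0.617 ± 0.0375 in WT on glucose. On NGM it was 0.696 ± 0.0323 in the double mutant, 0.55 ± 0.0204 in *pgph-2 o/e*, 0.689 ± 0.031 in *hlh-30* and 0.577 ± 0.0327 in WT. It was highest on glucose in the 3 mutant or transgenic genotypes and lowest in WT and *pgph-2 o/e* on NGM, and the ranges of *pgph-2 o/e* on glucose (0.758 to 0.832) and on NGM (0.532 to 0.568) did not overlap. These sums are descriptions over genes of very different levels, and no test was made on them.

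Among the genes of the peroxisome that are no members, 17 for biogenesis, transport and catalase were counted. Their median was 0.66 in the double mutant over *pgph-2 o/e* on NGM and 0.51 on glucose over NGM within *pgph-2 o/e*, where both medians over all genes were 0.01. In *pgph-2 o/e* on glucose over NGM, *prx-11*, which acts in peroxisome division, was upregulated (1.06 ± 0.13, adjusted P = 8.9e-05). *prx-2*, a ubiquitin ligase of the import machinery, was upregulated in *pgph-2 o/e* relative to WT on glucose (1.44 ± 0.34, adjusted P = 0.0071) and in *hlh-30* over WT on glucose (1.05 ± 0.36, adjusted P = 0.04). Of 9 regulators of fat and propionate metabolism, *nhr-13*, a nuclear receptor of fatty acid desaturation, was upregulated in *pgph-2 o/e* on glucose over NGM (1.15 ± 0.16, adjusted P = 2.8e-04), and *sbp-1*, the SREBP homologue, in *pgph-2 o/e* relative to WT on glucose (1.02 ± 0.12, adjusted P = 2.0e-04). Of all genes tested, 6.65% were upregulated in *pgph-2 o/e* on glucose over NGM. On glucose over WT, 5.44% were in *pgph-2 o/e* and 5.89% in *hlh-30*. In each of these comparisons the groups' sperm means do not overlap, and no member call was kept with the sperm covariate. Values of *prx-11*, *prx-2*, *nhr-13* and *sbp-1* with that covariate are not given here. *nhr-49*, a main activator of beta-oxidation genes, changed on glucose over NGM by 0.38 ± 0.08, adjusted P = 0.0091 in the double mutant, 0.39 ± 0.09, adjusted P = 0.0047 in *pgph-2 o/e*, 0.24 ± 0.06, adjusted P = 0.031 in *hlh-30* and 0.26 ± 0.07, adjusted P = 0.078 in WT.

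A set of *acs* and *acdh* genes moved together in the comparisons with the widest change in germline RNA. Their means over the 32 libraries ranged from 1.57 FPKM for *acs-23* to 15.6 FPKM for *acdh-8*. The 9 members downregulated in *pgph-2 o/e* relative to WT on glucose were *acs-18*, *acs-23*, *acs-15*, *acdh-8*, *acdh-5*, *acs-6*, *acs-10*, *acdh-4* and *acdh-6*, and the set was formed by these calls. All 9 were also downregulated in *hlh-30* over WT on glucose, which shares its WT libraries. In *pgph-2 o/e* on glucose over NGM, which shares its *pgph-2 o/e* libraries, 8 of 9 were downregulated. All 9 were also negative in the interaction between transgene and glucose, which holds the difference that formed the set and all its libraries, so this is no separate result. In the double mutant over *pgph-2 o/e* on NGM, with no library in common with the comparison that formed the set, 6 of 9 were downregulated. Of all members tested, the shares downregulated in these comparisons, in the order given, were 14.5%, 16.1%, 14.5%, 16.1% and 11.3%. The shares of all genes tested were close, at 13.7%, 14.7%, 13.1%, 14.2% and 10.7%. In WT on glucose over NGM none of the 9 was called by edgeR, and their median log2 fold change was 0.56. Their mean over the 9 genes was 4.19 log2 CPM in WT on glucose and 4.08 in *pgph-2 o/e* on NGM, the highest, and 1.52 in *hlh-30* on glucose, the lowest.

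*acdh-8*, an acyl-CoA dehydrogenase, can stand for the set. On glucose it had 10.6, 11, 14.5 and 9.96 FPKM in the double mutant, 4.76, 3.63, 9.98 and 7.95 FPKM in *pgph-2 o/e*, 1.69, 5.85, 11.1 and 2.41 FPKM in *hlh-30* and 23.6, 37.9, 21.5 and 34.8 FPKM in WT. On NGM it had 10.7, 7.44, 12.3 and 10.1 FPKM in the double mutant, 29.6, 31.1, 29.6 and 31.4 FPKM in *pgph-2 o/e*, 10.1, 11.2, 13.3 and 4.6 FPKM in *hlh-30* and 29.2, 20.3, 22.5 and 15.5 FPKM in WT, which overlapped WT on glucose. The WT libraries on glucose and the *pgph-2 o/e* libraries on NGM were the highest by their means, with no overlap with the groups they are compared with below. It was downregulated in each, the log2 difference being -2.16 ± 0.31, adjusted P = 4.7e-04 in *pgph-2 o/e* relative to WT on glucose, -2.5 ± 0.54, adjusted P = 0.0067 in *hlh-30* over WT on glucose, -2.20 ± 0.26, adjusted P = 8.1e-05 in *pgph-2 o/e* on glucose over NGM and -1.58 ± 0.13, adjusted P = 4.6e-06 in the double mutant over *pgph-2 o/e* on NGM. Within a group, in *hlh-30* on glucose, replicate 3 had the highest sperm mean (3.97 log2 CPM, against 0.90 to 2.40 in the other 3) and the highest *acdh-8* level, and in *hlh-30* on NGM replicate 4 had the lowest of both.

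Among the *acs* genes of the set, *acs-18* had 1.66, 1.78, 3.26 and 2.77 FPKM in *pgph-2 o/e* and 10.7, 16.1, 9.5 and 15.9 FPKM in WT on glucose, a log2 fold change of -2.46 ± 0.26, adjusted P = 1.1e-04. *acs-15* had 0.213, 0.464, 1.61 and 0.269 FPKM in *hlh-30* and 4.28, 5.25, 4.89 and 5.14 FPKM in WT on glucose, a log2 fold change of -2.95 ± 0.57, adjusted P = 0.0047. Neither pair of groups overlapped. *acs-18* was upregulated in the double mutant over *pgph-2 o/e* on glucose (1.25 ± 0.22, adjusted P = 0.0048, and 0.55, adjusted P = 0.19 with the sperm covariate), the only call of that comparison, and 23 of 39 tested sperm genes were upregulated there. The 9 genes' calls in *pgph-2 o/e* relative to WT on glucose, *hlh-30* over WT on glucose and the interaction with glucose were all lost with the sperm mean as a covariate, where edgeR called 0 of 62 members. The 8 calls on glucose over NGM in *pgph-2 o/e* and the 6 in the double mutant over *pgph-2 o/e* on NGM were lost too, and *acdh-6*, not called on glucose in *pgph-2 o/e* without the covariate, was called as lower with it (-2.77, adjusted P = 0.033). In the first 2 of these 38 of 39 tested sperm genes were downregulated and the sperm means of the groups do not overlap. Beyond this covariate, the part of germline RNA in these values was not tested. The hypodermal and molting means were high in the same groups as the sperm mean, so the covariate cannot part germline RNA from such differences.

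**Figure D5:**
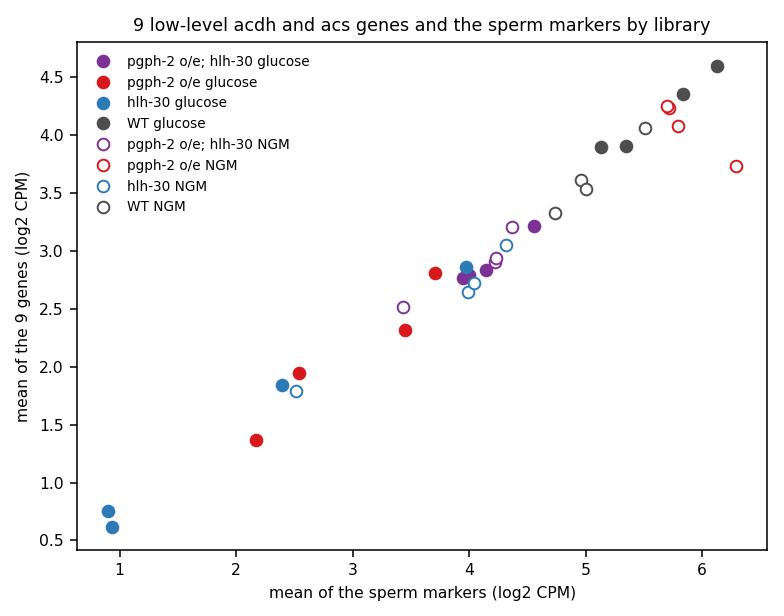
Mean log2 CPM of the 9 genes of the set (y axis) against the mean log2 CPM of the 40 sperm markers (x axis) in each of the 32 libraries; filled points are 2% glucose and open points NGM, and colours mark the genotypes. Libraries with a higher sperm mean have a higher mean of the 9 genes, across groups and within *hlh-30* on both media, while in *pgph-2 o/e* on NGM the library with the highest sperm mean (6.29) has the lowest mean of the 9 genes (3.73, others 4.08 to 4.25).

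*acdh-6* departed from the set. It had 12.2, 6.21, 9.06 and 11.5 FPKM in *hlh-30* on glucose and 2.49, 2.07, 2.41 and 3.16 FPKM on NGM, and 6.16, 6.25, 4.77 and 3.44 FPKM in the double mutant and 19.2, 9.51, 12.6 and 6.83 FPKM in WT on NGM. The *hlh-30* libraries on NGM were the lowest of all and did not overlap any of these groups. It was upregulated by glucose in *hlh-30* (1.97 ± 0.24, adjusted P = 0.0021, and 1.65, adjusted P = 7.0e-04 with the sperm covariate), where the sperm genes had a median of -1.24, and was downregulated in *hlh-30* over WT on NGM (-2.25 ± 0.31, adjusted P = 0.0023, and -2.02, adjusted P = 0.092 with the covariate). The double mutant over *hlh-30* on NGM gave 1.03 ± 0.23, adjusted P = 0.019, a call lost without 1 of 5 libraries in turn (*hlh-30* replicate 1, 2 or 3, double mutant replicate 1 or 2), with adjusted P values of 0.051 to 0.066. In *hlh-30* over WT on NGM, *acdh-5* (-1.30 ± 0.30, adjusted P = 0.023), *acdh-8* (-1.15 ± 0.29, adjusted P = 0.029) and *acs-15* (-1.08 ± 0.29, adjusted P = 0.035) were also downregulated, and each call was lost without 1 of several libraries. With the sperm covariate these were -0.29, adjusted P = 0.71 for *acdh-5*, -0.06, adjusted P = 0.93 for *acdh-8* and -0.09, adjusted P = 0.93 for *acs-15*. For *acdh-5* the libraries were WT replicates 1 and 3 and *hlh-30* replicates 1 and 2 (adjusted P of 0.050 to 0.065), and for *acdh-8* and *acs-15* WT replicates 1, 2 and 3 and *hlh-30* replicates 1, 2 and 4 (adjusted P of up to 0.072 and 0.089, or a fold change under the limit).

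A few other *acs* genes were called outside this set. *acs-24* had 1.05, 1.23, 1.81 and 1.1 FPKM in the double mutant and 0.566, 0.599, 0.358 and 0.14 FPKM in *pgph-2 o/e* on NGM, without overlap, and was upregulated by 1.63 ± 0.40, adjusted P = 0.0064, and 2.31, adjusted P = 0.54 with the sperm covariate. Its calls in *hlh-30* over WT on glucose (1.33 ± 0.46, adjusted P = 0.042) and, within *pgph-2 o/e*, on glucose over NGM (1.23 ± 0.43, adjusted P = 0.042) were each lost without 1 of 6 libraries in turn, with adjusted P values of 0.077 to 0.10 and 0.056 to 0.13. These were *hlh-30* replicates 1, 2 and 4 and WT replicates 1, 2 and 4 in the first, and all *pgph-2 o/e* glucose replicates and NGM replicates 3 and 4 in the second. With the covariate they were 0.34, adjusted P = 0.92 and 0.90, adjusted P = 0.85. *acs-9* was upregulated in *pgph-2 o/e* on glucose over NGM (1.36 ± 0.32, adjusted P = 0.0061), and over WT on glucose by 1.54 ± 0.49, adjusted P = 0.029, a call lost without *pgph-2 o/e* replicate 2 or 3 or WT replicate 2 or 3 (adjusted P of 0.061 to 0.074). With the covariate these were 1.34, adjusted P = 0.65 and 2.36, adjusted P = 0.51. *acs-12* had 13.2, 11.2, 12.3 and 11.6 FPKM in the double mutant, 4.62, 7.47, 6.15 and 4.29 FPKM in *pgph-2 o/e*, 7.36, 7.0, 7.3 and 9.29 FPKM in *hlh-30* and 7.72, 6.46, 7.57 and 7.36 FPKM in WT on NGM. The double mutant did not overlap the other 3 groups, and *acs-12* was upregulated over *pgph-2 o/e* by 1.1 ± 0.16, adjusted P = 2.4e-04 (0.88, adjusted P = 0.59 with the covariate) and higher than in *hlh-30* by 0.63 ± 0.11, adjusted P = 0.0069. *acs-20*, a very-long-chain acyl-CoA synthetase needed for the cuticle barrier, was downregulated in the double mutant over *pgph-2 o/e* on NGM (-1.04 ± 0.09, adjusted P = 5.8e-06, and -1.08, adjusted P = 0.15 with the covariate), where 5 of 8 hypodermal genes were also downregulated. *acox-1.3* was upregulated in *pgph-2 o/e* on glucose over NGM (1.21 ± 0.24, adjusted P = 0.0024, and -0.23, adjusted P = 0.91 with the covariate).

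The interactions asked whether the effect of *pgph-2 o/e* depended on the medium or on *hlh-30*. With glucose (WT and *pgph-2 o/e*), 2 members were positive and 10 negative (background 6.27% and 14.2%), *acdh-2* and *acs-7* among the first and *ech-1.1* with the 9 genes of the set above among the second. With *hlh-30* on NGM (all 4 genotypes), 2 members were positive, *acdh-2* and *acs-12*, and 0 negative (edgeR, background 1.22% and 0.64%), with 5 negative at an unadjusted P under 0.05 and 0 with DESeq2. For both the double mutant was higher than the sum of the log2 differences of *pgph-2 o/e* and *hlh-30* from WT. For *acs-12* (1.03 ± 0.21, adjusted P = 0.013) the call was lost, with values of 0.92 to 0.98, without *pgph-2 o/e* replicate 1 or 4, *hlh-30* replicate 2 or 3 or double mutant replicate 1, and the count was then 1. With the sperm covariate the value for *acs-12* was 0.97, adjusted P = 0.012, also under the fold for a call.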

How the data were processed

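RNA was isolated from pellets of whole animals, and mRNA libraries were sequenced by a service company. Per the authors' processing notes, reads were aligned with Hisat2 to WBcel235 and counted per gene with featureCounts 1.5.0-p3. The deposited values are raw counts per gene for 32 libraries, with gene length and position, and whether counting used strand is not given in the sources used here. FPKM were computed here from TMM-scaled counts and the deposited length.

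Each comparison was fitted with edgeR 4.0.16 (R 4.3.3, quasi-likelihood test) on its own groups, after filtering with filterByExpr (minimum count 10, minimum total 15), and log2 CPM used a prior count of 2. Calls needed an adjusted P of at most 0.05 (Benjamini-Hochberg over all genes tested) and a log2 fold change of at least 1 in either direction, and 61 or 62 of the 63 members passed the filter in each comparison. The members and lists were chosen with earlier results of these data known. Named were 15 core genes, up to 4 called members in each direction per comparison, called genes of the pathway lists and the targeted genes. Genes named outside this rule were chosen after their values were seen, namely *hphd-1*, *alh-8*, *acdh-9*, the B12-dependent genes, *nhr-49* and any call beyond the 4. The alternatives were DESeq2 1.42.0, its size factors in edgeR, no filter, a replicate block, 1 fit over all 32 libraries, a sperm marker covariate and leaving out each library. Same-numbered replicates had correlated deviations over 0.1 throughout in 0 of 12 comparisons (range -0.318 to 0.425), so the numbers were not taken to pair the libraries. P values measure the spread between the 4 libraries of a group. The scripts were tested on simulated data.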

Additional observations from a re-analysis of the deposited data

Results flagged for a closer look

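Single libraries stood apart from the other 3 of their group in 9 of 240 groups looked at over 30 genes by Dixon's criterion, and about 1 in 20 groups would be picked out by chance. *acdh-2* had 55.7 FPKM in double mutant glucose replicate 2, against 6.23 to 8.15 FPKM in the other 3. In *hlh-30* on NGM 5 genes had replicate 4 apart. These were *acs-15* (0.690 FPKM, others 1.60 to 1.78), *acox-3* (28.4 FPKM, others 24.5 to 24.8), *dhs-28* (231 FPKM, others 206 to 209), *ech-6* (1204 FPKM, others 1089 to 1104) and *acs-12* (9.29 FPKM, others 7.0 to 7.36). That library also had the lowest sperm mean of its group, 2.51 log2 CPM against 3.99 to 4.32 in the other 3. The others were *acs-24* in *pgph-2 o/e* glucose replicate 1 (1.41 FPKM, others 0.781 to 0.888), *dhs-28* in double mutant NGM replicate 1 (240.3 FPKM, others 246 to 248) and *cpt-2* in WT glucose replicate 2 (74.2 FPKM, others 84.5 to 85.9).

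The response to glucose differed between *pgph-2 o/e* and WT by the interaction test in edgeR for 12 members. The log2 interaction was -2.77 for *acs-23*, -2.65 for *acdh-8*, -2.61 for *acs-15*, -2.59 for *acdh-5*, -2.58 for *acs-18*, -2.53 for *acs-6*, -2.49 for *acs-10*, -2.12 for *acdh-4*, -1.55 for *acdh-6* and -1.41 for *ech-1.1*. It was 1.02 for *acs-7* and 1.72 for *acdh-2*. On NGM the effect of *pgph-2 o/e* differed between the *hlh-30* background and WT for *acs-12* (1.03) and *acdh-2* (1.52).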

How the results depend on the processing

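With the sperm mean as a covariate, members called became 0 in *pgph-2 o/e* relative to WT on NGM and on glucose, *hlh-30* over WT on glucose, the double mutant over *pgph-2 o/e* on both media and the interaction with glucose. They became 1 in *hlh-30* over WT on NGM, 2 on glucose over NGM in *pgph-2 o/e* and 1 in the interaction with *hlh-30*. The sperm mean separates most of these groups, so this fit has little information left. Signs turned under it, none past the adjusted P, for *acs-23* (0.68) and *acdh-8* (0.11) in *pgph-2 o/e* relative to WT on glucose, *acdh-5* (0.20), *acs-18* (0.21) and *acs-10* (0.036) in *hlh-30* over WT on glucose, and *acs-10* (0.087) in the double mutant over *pgph-2 o/e* on NGM. They also turned for *acdh-5* (1.16), *acs-10* (0.49) and *acs-23* (1.28) on glucose over NGM in *pgph-2 o/e*, and *acs-23* (0.20), *acdh-8* (0.11) and *acdh-5* (0.54) in the interaction with glucose. With all 32 libraries in 1 fit, the count was 2 in *hlh-30* over WT on NGM, 0 in the double mutant over *pgph-2 o/e* on glucose, 6 in the double mutant over *hlh-30* on glucose, 6 on glucose over NGM in *hlh-30* and 1 in the interaction with *hlh-30*, which was also 1 with DESeq2 and with its size factors. The replicate block gave 8 in the double mutant over *hlh-30* on glucose, 1 on glucose over NGM in WT and 6 on glucose over NGM in *hlh-30*. The replicate numbers are not known to pair libraries, and the block moved no other count by over 1.5 times. Causes were not tested.

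Leaving out 1 library at a time gave 1 to 2 members called in *pgph-2 o/e* relative to WT on NGM, 1 to 5 in *hlh-30* over WT on NGM, 1 to 5 in the double mutant over *pgph-2 o/e* on glucose and 1 to 10 in the double mutant over *hlh-30* on glucose. It gave 3 to 9 on glucose over NGM in *hlh-30*, 2 to 5 on glucose over NGM in the double mutant and 1 to 3 in the interaction with *hlh-30*. Of 84 gene values named, 82 kept their call and direction with DESeq2, 82 with its size factors, 82 without the filter, 80 with all libraries in 1 fit and 78 with the block. With the sperm covariate 37 of the 84 kept them, 33 were weaker, 12 had the opposite sign and 2 were stronger. Low counts limit *cpt-3*, *acs-9*, *acs-24* and *acs-25*.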
